A study of Homo sapiens with 12 samples.

Results

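The genes described here are 10 of the ATF4 stress pathway: ATF4, ATF3, DDIT3, TRIB3, CHAC1, CEBPB, CEBPG, SESN2, DDIT4 and PPP1R15A. The choice was made by name, with earlier results of these data known. Counts of these genes beside shares of all probe sets are therefore a description and no independent test. The platform annotation gave 9 of these 10 genes a probe set of their own, 10 probe sets in all of 22215 tested, and all 10 are shown. PPP1R15A had 2 probe sets and each other gene 1, and SESN2 was not analysed here. RNA came from MDA-MB-231 cells, a long-established line of triple-negative, mesenchymal breast cancer, and was hybridised to Affymetrix 3′ expression arrays, whose values are on a log2 scale. They received lentiviral particles that carried an shRNA against HDAC5, a class IIa histone deacetylase, or against LSD1, the lysine demethylase whose gene is KDM1A, or a scramble shRNA. The 12 arrays form 4 groups of 3 biological replicates: HDAC5 shRNA, a scramble set without a tag, LSD1 shRNA, and a scramble set tagged LSD1. The untagged scramble set was taken as that of the HDAC5 experiment, because the design text lists it beside HDAC5 shRNA and the other set carries the LSD1 tag. No source used here says what separates the biological replicates, so p-values measure the spread between these arrays, which may be technical.

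ATF4 is a basic leucine zipper (bZIP) transcription factor at the centre of the integrated stress response. Kinases that sense unfolded protein, missing amino acids, double-stranded RNA or haem deficiency phosphorylate the initiation factor eIF2, which lowers protein synthesis as a whole while it favours translation of the ATF4 mRNA. ATF4 then turns on genes of amino acid supply together with further regulators, among them ATF3, DDIT3 (CHOP), CEBPB and CEBPG, which dimerise with each other or with ATF4, and effectors that dampen the response. Arrays measure RNA, so neither eIF2 phosphorylation nor ATF4 protein was observed.

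ATF4 and its C/EBP partners bind composite elements with a C/EBP part and an ATF part, and ATF factors also bind the cyclic AMP response element. Both were searched for in the RefSeq promoter windows of GRCh38.p14, which run from 250 bases before to 50 bases after a gene start, on both strands. The composite element was written as TGATGNAA and the cyclic AMP response element as TGACGTCA, and the same 8 bases cannot match both. All 10 genes had a window, 17 in all, since some genes have several annotated starts. TGATGNAA was found in 3 of the 17 windows (ATF3, CHAC1 and CEBPG) and in 3.62% of all 35116 windows, and TGACGTCA in 1 of the 17 (PPP1R15A) and in 1.85% of all windows. The matching stretches are shown because they let the promoters of genes that fell together be set side by side, and the capitals mark the match. The CHAC1 window (chr15:40953221-40953520, plus strand) is given whole, since CHAC1 had the largest decrease of the 9 genes. The others are given with 40 bases on each side: ATF3 (chr1:212565176-212565263, plus strand, the upstream one of its 2 annotated starts), CEBPG (chr19:33374031-33374118, plus strand, the downstream one of its 2 starts) and PPP1R15A (chr19:48872323-48872410, plus strand).
CHAC1: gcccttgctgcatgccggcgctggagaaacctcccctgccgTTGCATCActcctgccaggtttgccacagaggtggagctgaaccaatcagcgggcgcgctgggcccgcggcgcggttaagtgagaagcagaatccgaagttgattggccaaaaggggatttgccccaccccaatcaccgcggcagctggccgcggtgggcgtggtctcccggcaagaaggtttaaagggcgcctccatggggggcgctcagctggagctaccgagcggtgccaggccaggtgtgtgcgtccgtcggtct
ATF3: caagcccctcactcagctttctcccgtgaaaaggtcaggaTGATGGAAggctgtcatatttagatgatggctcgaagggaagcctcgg
CEBPG: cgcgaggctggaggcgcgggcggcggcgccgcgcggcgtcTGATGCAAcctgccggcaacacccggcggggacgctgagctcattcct
PPP1R15A: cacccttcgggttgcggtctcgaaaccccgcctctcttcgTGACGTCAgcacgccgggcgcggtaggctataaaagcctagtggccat

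Relative to the gene start, the first base of the match lay at -209 in CHAC1, where the element stands on the opposite strand, at -191 in ATF3, at -42 in CEBPG and at -58 in PPP1R15A. A match of letters describes the sequence and does not show that a factor binds there. Elements outside these windows were not searched for.

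The cells and targets were checked first. The mesenchymal markers VIM, AXL, CAV1, MSN, CD44 and LGALS1 all lay above the 94th percentile of each of the 12 arrays, while PGR, PTPRC, CDH5, VWF and LUM, from the lists of luminal, blood, and endothelial and fibroblast markers, lay below the lower quartile on all 12. Other genes of those lists were higher on all 12 arrays: ESR1, FOXA1, CD3D, PECAM1 and PDGFRB lay between the 32.2nd and the 57.9th percentile, and GATA3 and KRT19 between the 64.5th and the 91.0th. HDAC5 averaged 6.29 ± 0.18 (log2, SD, n = 3) with HDAC5 shRNA and 7.40 ± 0.17 with scramble (change -1.11, SE 0.11, limma adjusted p = 4.72e-05). KDM1A averaged 6.63 ± 0.17 with LSD1 shRNA and 9.72 ± 0.09 with scramble (change -3.08, SE 0.12, adjusted p = 5.42e-05). Array medians were 6.58 to 6.64 in the HDAC5 experiment and 7.05 to 7.15 in the LSD1 experiment, so each shRNA was set against its own scramble arrays and levels were not tested across experiments. Arrays of 1 group correlated at 0.9907 or more over all probe sets, and no 2 were identical.

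With HDAC5 shRNA all 9 genes fell: each of the 10 probe sets was lower at an adjusted p under 0.05 (limma, adjusted over all 22215 probe sets). Of all probe sets, 19.2% were called lower and 19% higher in this comparison. As bulk RNA, fewer cells with a transcript and less of it per cell cannot be told apart. The log2 fold changes ran from -2.84 to -0.75 with a median of -1.30, beside a median of -0.01 over all probe sets. On all 10 probe sets the 3 HDAC5 shRNA arrays lay below the 3 scramble arrays, as they did for 23.5% of all probe sets. At least a 2-fold decrease was called for 6 of the 10, against 1.47% of all probe sets. The effectors CHAC1, DDIT4 and TRIB3 and the factor ATF3 had the largest decreases (-2.84 to -1.92), DDIT3 followed (-1.49), and ATF4, CEBPB, CEBPG and PPP1R15A had the smallest (-1.10 to -0.75).

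**Figure D1:**
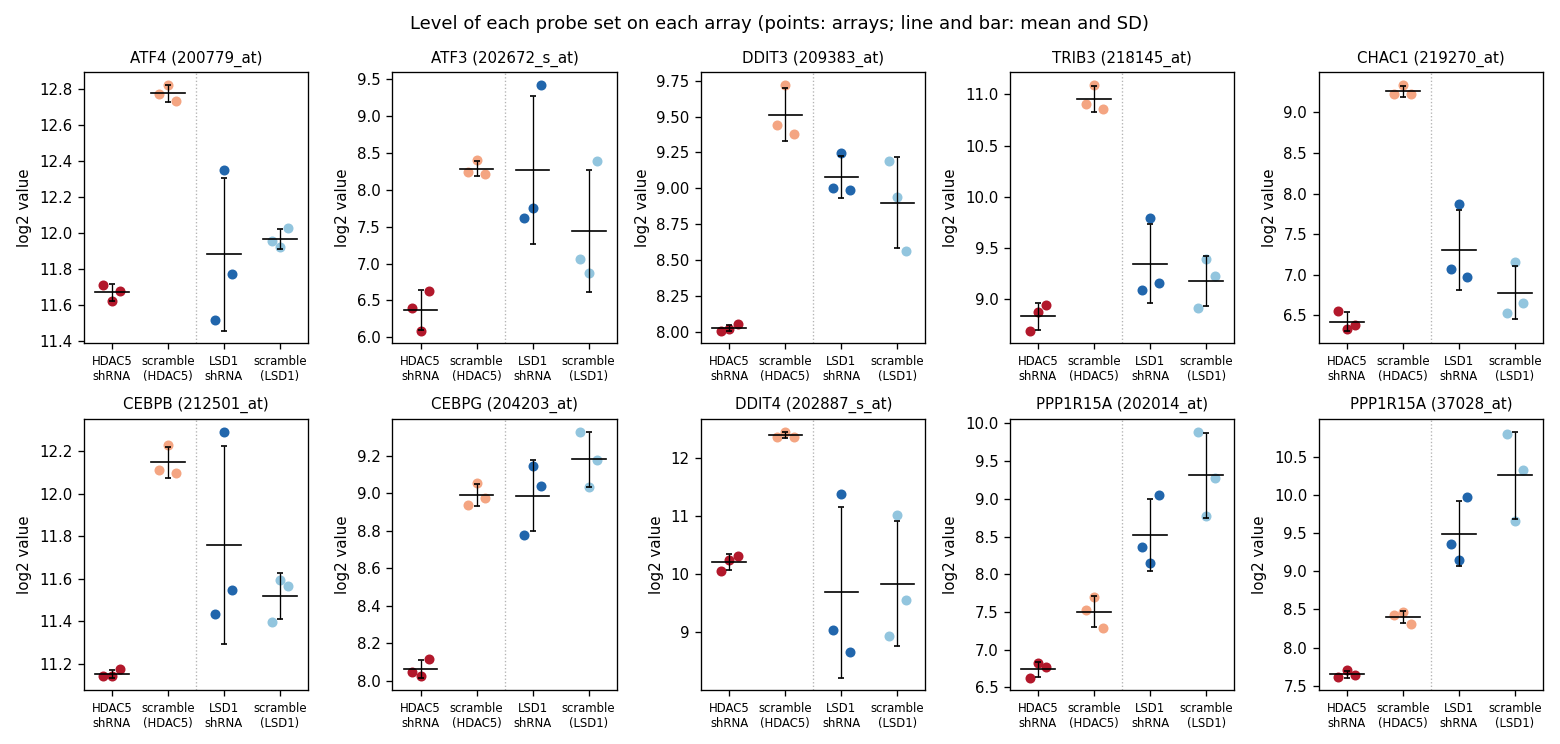
Log2 values (y axes, a separate scale in each panel) of the 10 probe sets on each of the 12 arrays, in the order HDAC5 shRNA, its scramble, LSD1 shRNA, its scramble (x axes); points are arrays, and lines with bars are means with SD over 3 arrays. In each panel the 3 HDAC5 shRNA points lie below the 3 points of their scramble set, while LSD1 shRNA and its scramble overlap.

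ATF4 had log2 values of 11.72, 11.62 and 11.68 on HDAC5 shRNA arrays 1, 2 and 3, against 12.77, 12.83 and 12.73 on scramble arrays 1, 2 and 3. The groups were far apart relative to their spread, with a 2.15-fold decrease (-1.10, SE 0.04, limma adjusted p = 8.84e-08). ATF3, a stress-induced bZIP factor that often acts as a repressor, had 6.40, 6.09 and 6.62 with HDAC5 shRNA, against 8.24, 8.40 and 8.22 with scramble. This was a 3.77-fold decrease (-1.92, SE 0.12, adjusted p = 3.16e-06), with the widest spread among the HDAC5 shRNA arrays. DDIT3 encodes CHOP, a C/EBP-family factor linked to cell death under unresolved stress. It had 8.01, 8.02 and 8.05 with HDAC5 shRNA, against 9.44, 9.72 and 9.38 with scramble. The HDAC5 shRNA arrays were almost level and the scramble arrays were not, and the change was -1.49 (SE 0.08, adjusted p = 1.43e-06).

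The C/EBP partners changed less. CEBPB, a C/EBP factor of stress, inflammation and differentiation, had 11.14, 11.14 and 11.17 with HDAC5 shRNA, against 12.11, 12.23 and 12.10 with scramble. Its change of -0.997 (SE 0.04, adjusted p = 2.36e-07) was just short of 2-fold. CEBPG, a C/EBP factor that lacks an activation domain of its own and pairs with ATF4, had 8.05, 8.03 and 8.12 with HDAC5 shRNA, against 8.94, 9.06 and 8.97 with scramble. No array of one group came near the other, and the change was -0.93 (SE 0.05, adjusted p = 1.62e-06).

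The 3 largest changes were those of the effectors CHAC1, DDIT4 and TRIB3. CHAC1, a glutathione-degrading enzyme, had 6.55, 6.33 and 6.38 with HDAC5 shRNA, against 9.23, 9.34 and 9.22 with scramble. This 7.17-fold decrease (-2.84, SE 0.07, adjusted p = 2.28e-08) was the 16th largest among the 22215 probe sets. TRIB3, a pseudokinase that binds ATF4 and CHOP and restrains them, had 8.69, 8.87 and 8.94 with HDAC5 shRNA, against 10.91, 11.09 and 10.86 with scramble. All 3 arrays of HDAC5 shRNA thus lay well below the lowest scramble array, and the decrease was 4.35-fold (-2.12, SE 0.08, adjusted p = 1.64e-07). DDIT4 (REDD1), an inhibitor of mTORC1, had 10.04, 10.25 and 10.31 with HDAC5 shRNA, against 12.36, 12.45 and 12.36 with scramble, a 4.55-fold decrease (-2.19, SE 0.07, adjusted p = 6.56e-08). DDIT4 ranked 32nd and TRIB3 34th among all decreases.

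PPP1R15A (GADD34) guides a phosphatase to eIF2 and so ends the response. Its probe set 37028_at had 7.61, 7.70 and 7.64 with HDAC5 shRNA, against 8.42, 8.47 and 8.31 with scramble (change -0.75, SE 0.06, adjusted p = 1.11e-05). Its other probe set, 202014_at, had 6.63, 6.82 and 6.77 with HDAC5 shRNA, against 7.53, 7.70 and 7.29 with scramble (-0.77, SE 0.10, adjusted p = 0.000316). Both probe sets thus gave nearly the same change, the smallest of the 9 genes. In a joint fit of the 12 arrays 202014_at did not pass (limma adjusted p = 0.0528), and the other 9 probe sets did. That fit pools the spread of both experiments. For 202014_at the SD was 0.10 with HDAC5 shRNA and 0.21 with its scramble. In the LSD1 experiment it was 0.48 with LSD1 shRNA and 0.56 with scramble.

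Some other measures differed between the same groups. For ACTB control probe sets, the log2 signal at the 3′ end exceeded that at the 5′ end, a gauge of RNA integrity and labelling, by 0.68 ± 0.08 (SD, n = 3) on HDAC5 shRNA arrays and 0.90 ± 0.06 on scramble arrays (two-sided exact permutation p = 0.1, the smallest that 3 arrays against 3 can give). The same gap for GAPDH was 0.017 ± 0.016 on HDAC5 shRNA arrays and 0.034 ± 0.0019 on scramble arrays (exact permutation p = 0.2). Of 6 endothelial and fibroblast markers 3 were called lower and none higher, with list means of 4.45 to 4.52 on HDAC5 shRNA arrays and 4.71 to 4.75 on scramble arrays, close to the arrays' lower quartiles (4.59 to 4.65). The 3 were PECAM1 (-0.62), PDGFRB (-0.48) and VWF (-0.31). Further probe sets of PECAM1, at -0.30 and -0.025, were not called. Of 6 luminal markers 1 was called higher (GATA3, 0.29, with further probe sets at 0.24 and 0.07 that were not called). Another was called lower (ERBB3, -1.02, with a further probe set at -0.011 that was not called). The luminal list means were 6.31 to 6.40 on HDAC5 shRNA arrays and 6.45 to 6.50 on scramble arrays. Of the 6 mesenchymal markers CAV1 (0.40) and VIM (0.12) were called higher and MSN (-0.16) lower. The means of that list were 12.52 to 12.57 on HDAC5 shRNA arrays and 12.46 to 12.50 on scramble arrays. None of the 4 measured blood markers was called (limma, 1 at an unadjusted p under 0.05). The part of these measures in the result was not tested.

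With LSD1 shRNA none of the 10 probe sets was called, by limma at an adjusted p under 0.05, where 1.7% of all probe sets were called lower and 2.11% higher. At an unadjusted p under 0.05 there were 2, both of PPP1R15A and both lower, beside 9.75% of all probe sets that were lower at that level. Changes were positive for 5 probe sets and negative for 5, with a median of 0.04. On no probe set did the 3 LSD1 shRNA arrays lie wholly above or below the 3 scramble arrays, whereas they did so for 24.5% of all probe sets. The 10 probe sets varied more in this experiment: their median SD over 3 arrays was 0.45 with LSD1 shRNA and 0.32 with its scramble, against 0.074 with HDAC5 shRNA and 0.077 with the scramble of that experiment. Over all probe sets the median SD was 0.127 with LSD1 shRNA and 0.106 with its scramble, against 0.0696 with HDAC5 shRNA and 0.0692 with scramble.

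Here too other measures differed. LUM was called higher with LSD1 shRNA (1.54, limma adjusted p = 0.0205), the 1 call among the 6 endothelial and fibroblast markers, and the means of that list were 5.26 to 5.45 on LSD1 shRNA arrays and 5.02 to 5.14 on scramble arrays. LUM averaged 4.15 ± 0.33 with LSD1 shRNA and 2.61 ± 0.39 with scramble. It lay below the lower quartile of each array, so the size of its change is not exact. None of the 6 mesenchymal markers was called (limma, 3 at an unadjusted p under 0.05). Their means were 12.74 to 12.79 with LSD1 shRNA and 12.90 to 12.92 with scramble. Those of the 4 measured blood markers were 5.14 to 5.22 with LSD1 shRNA and 4.92 to 5.10 with scramble. None of these 4 was called (limma), and CD3D was at 0.77. The means of the 6 luminal markers overlapped, and none of the 6 was called (limma, 1 at an unadjusted p under 0.05). The 3′ minus 5′ gap of GAPDH was 0.042 ± 0.029 on LSD1 shRNA arrays and 0.0015 ± 0.0080 on scramble arrays (exact permutation p = 0.1), and that of ACTB was 1.43 ± 0.12 on LSD1 shRNA arrays and 1.30 ± 0.06 on scramble arrays (exact permutation p = 0.2). Their part in the values of the 9 genes was not tested.

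**Figure D2:**
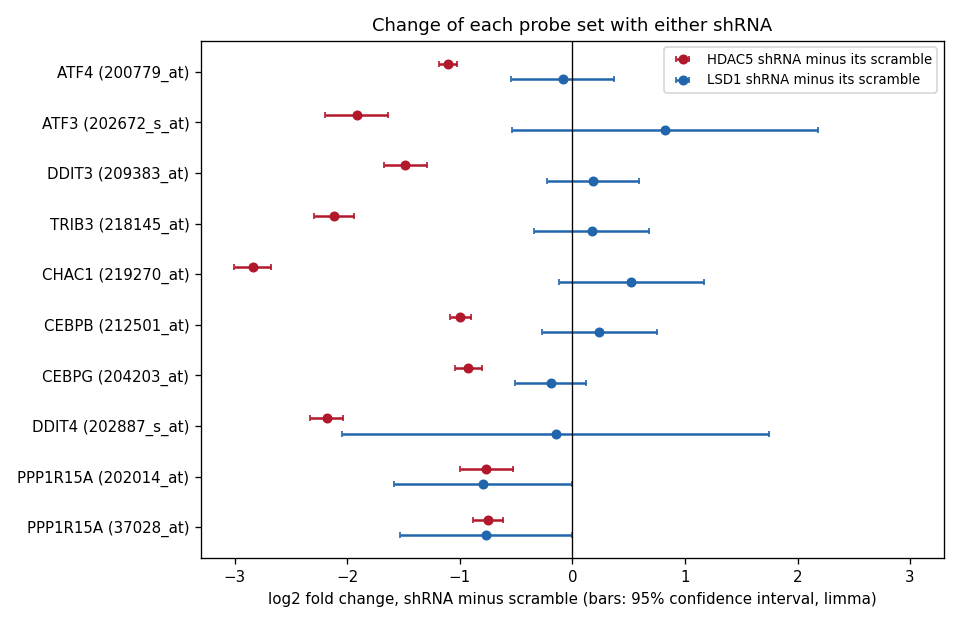
Log2 fold change (x axis, shRNA minus its scramble) of each probe set (rows) with HDAC5 shRNA and with LSD1 shRNA, with limma's 95% confidence interval as bars. All 10 HDAC5 intervals lie below 0, from -0.75 to -2.84 at their centres; the LSD1 intervals include 0 except those of the 2 PPP1R15A probe sets, whose upper bounds are -0.006 and -0.002.

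ATF4 had 11.52, 12.35 and 11.78 on LSD1 shRNA arrays 1, 2 and 3, against 11.96, 11.92 and 12.03 on its scramble arrays (A, B, C). Array 2 lay above all scramble arrays and arrays 1 and 3 below them, for a change of -0.09 (95% interval -0.55 to 0.37, adjusted p = 0.857 by limma). ATF3 had 7.62, 7.76 and 9.42 with LSD1 shRNA, against 7.07, 6.87 and 8.38 with scramble. Each group held 1 high array, and the interval was wide (change 0.82, -0.54 to 2.18). Without LSD1 shRNA array 3 the change was 0.25, and without scramble array C it was 1.30. DDIT3 had 8.9998, 9.25 and 8.99 with LSD1 shRNA, against 9.19, 8.94 and 8.56 with scramble, a change of 0.18 (-0.23 to 0.59). A decrease of DDIT3 as large as that with HDAC5 shRNA lay outside this interval.

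CEBPB had 11.44, 12.29 and 11.55 with LSD1 shRNA, against 11.40, 11.60 and 11.56 with scramble, so that array 2 alone stood apart (change 0.24, -0.27 to 0.75). CEBPG had 8.78, 9.15 and 9.04 with LSD1 shRNA, against 9.33, 9.04 and 9.18 with scramble, and the groups overlapped (-0.19, -0.51 to 0.12). CHAC1 had 7.07, 7.87 and 6.97 with LSD1 shRNA, against 6.53, 7.15 and 6.65 with scramble. The LSD1 shRNA arrays were higher on average, but scramble array B exceeded 2 of them (0.52, -0.12 to 1.16, adjusted p = 0.35 by limma). Without LSD1 shRNA array 2 the change was 0.24. TRIB3 had 9.09, 9.79 and 9.16 with LSD1 shRNA, against 8.91, 9.39 and 9.23 with scramble (0.17, -0.34 to 0.68).

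DDIT4 varied most. It had 9.03, 11.37 and 8.66 on LSD1 shRNA arrays 1, 2 and 3, against 8.93, 11.02 and 9.56 on its scramble arrays (A, B, C). Array 2 and scramble array B were both far above every other array of the experiment, and the change of -0.15 had an interval of -2.05 to 1.75. Without these 2 arrays the 10 probe sets again gave no call (limma). PPP1R15A showed the opposite order. Its probe set 37028_at had 9.35, 9.15 and 9.97 with LSD1 shRNA, against 10.80, 9.66 and 10.32 with scramble, for a change of -0.77 (-1.53 to -0.006, adjusted p = 0.25 by limma), and 202014_at had 8.36, 8.14 and 9.06 with LSD1 shRNA, against 9.89, 8.77 and 9.28 with scramble (-0.79, adjusted p = 0.253). On both scramble array B was the lowest of its group and array 2 the lowest of all 6.

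The changes with the 2 shRNAs were then set against each other in 1 fit of all 12 arrays. This fit pools the spread of a probe set over both experiments, although the 10 probe sets varied more in the LSD1 experiment. Its p-values are therefore approximate and may be too small. Each shRNA was used in its own experiment, so a difference between shRNAs cannot be told apart from a difference between experiments. The HDAC5 change was lower than the LSD1 change for 7 of the 10 probe sets at an adjusted p under 0.05, and for none was it higher, where 12.7% of all probe sets were called lower. The difference was -3.37 for CHAC1 (SE 0.30, limma adjusted p = 2.06e-05), -2.74 for ATF3 (SE 0.63), -2.29 for TRIB3 (SE 0.24), -1.67 for DDIT3 (SE 0.20), -1.24 for CEBPB (SE 0.23), -1.02 for ATF4 (SE 0.21) and -0.73 for CEBPG (SE 0.15, adjusted p = 0.0029). For DDIT4 it was -2.04 with an SE of 0.86 and did not pass (adjusted p = 0.106), although it did without scramble array B and LSD1 shRNA array 2 (-1.78, adjusted p = 0.00015), without scramble array B alone (-2.63, adjusted p = 0.031) and without LSD1 shRNA array 3 alone (-2.55, adjusted p = 0.0381). Without LSD1 shRNA array 2 alone it was -1.19 and did not pass (adjusted p = 0.141), and over all alternatives the limma adjusted p reached 0.219. For PPP1R15A, which changed by -0.75 and -0.77 on 37028_at with the 2 shRNAs, the difference was 0.02 (95% interval -0.74 to 0.78) on 37028_at and 0.03 (-0.79 to 0.84) on 202014_at.

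The rank of each probe set within its own array was taken as a further measure of its level. CHAC1 stood at the 47.3rd to 49.7th percentile on HDAC5 shRNA arrays and at the 77.3rd to 78.3rd on their scramble arrays, and at the 48.9th to 57.8th percentile on LSD1 shRNA arrays and the 43.5th to 50.6th on theirs. TRIB3 stood at the 71.6th to 73.9th with HDAC5 shRNA and the 92.01st to 93.3rd with scramble, and at the 72.4th to 79.6th with LSD1 shRNA and the 70.4th to 75.1st with its scramble. For ATF4, ATF3, DDIT3, TRIB3, CHAC1, CEBPB and DDIT4 scramble arrays from the HDAC5 experiment held higher positions than all 3 scramble arrays of the LSD1 experiment. PPP1R15A went the other way: on 37028_at it stood at the 60.1st to 61.0th with HDAC5 shRNA and the 67.6th to 69.0th with scramble, against the 72.5th to 81.7th with LSD1 shRNA and the 78.0th to 88.8th with its scramble. Cells, processing and array run cannot be told apart between the experiments, so these positions are a description with no test.

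**Figure D3:**
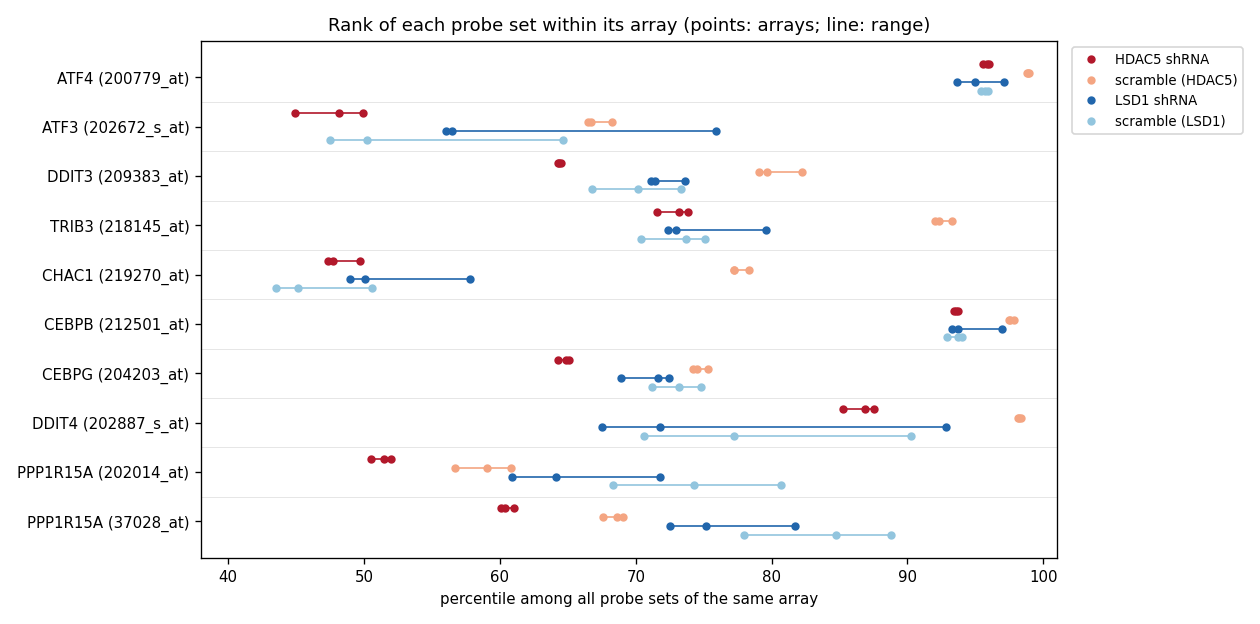
Percentile of each probe set among all 22215 probe sets of the same array (x axis) for the 10 probe sets (rows), with 1 point per array and a line over the range of each group of 3. CHAC1 on scramble arrays from the HDAC5 experiment (77.3 to 78.3) stands above its 9 other arrays (43.5 to 57.8), while PPP1R15A is highest in the LSD1 experiment.

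Further genes of the pathway were counted by list, with 1 probe set per gene, the one with the highest mean. These lists too were chosen with earlier results of these data known. Over all 11963 genes, 22.4% were called lower and 20.7% higher with HDAC5 shRNA, and 1.8% lower and 2.65% higher with LSD1 shRNA. At an unadjusted p under 0.05, in either direction, there were 5934 of the 11963 genes with HDAC5 shRNA and 2637 with LSD1 shRNA. The unadjusted counts of the lists below are to be read beside these. Of 40 further ATF4 and CHOP targets, 33 fell and 1 rose with HDAC5 shRNA, with a median log2 fold change of -0.86 (-0.995 where all probe sets of a gene were averaged), beside -0.02 over all genes. The largest decreases were in INHBE, an activin-family subunit (-5.32, SE 0.08), the cytokine GDF15 (-3.77, SE 0.07), CTH, which makes cysteine (-2.94, SE 0.06), and NUPR1, a stress-induced chromatin protein (-2.80, SE 0.08). A further probe set of GDF15, at -0.29, was not called. INHBE ended at 3.87 ± 0.12 with HDAC5 shRNA, below the arrays' lower quartile, so the size of its decrease is not exact, against 9.19 ± 0.08 with scramble. With LSD1 shRNA 1 of the 40 fell and none rose (limma; 7 had an unadjusted p under 0.05; median 0.08). This gene was ERO1A, an oxidase of the endoplasmic reticulum (-1.15, SE 0.11, adjusted p = 0.00558), which had a change of -0.04 with HDAC5 shRNA. The other 4 genes had positive values that did not pass, 1.93 for GDF15 (SE 0.59, adjusted p = 0.129), 1.03 for CTH, 0.86 for INHBE and 0.14 for NUPR1.

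**Figure D4:**
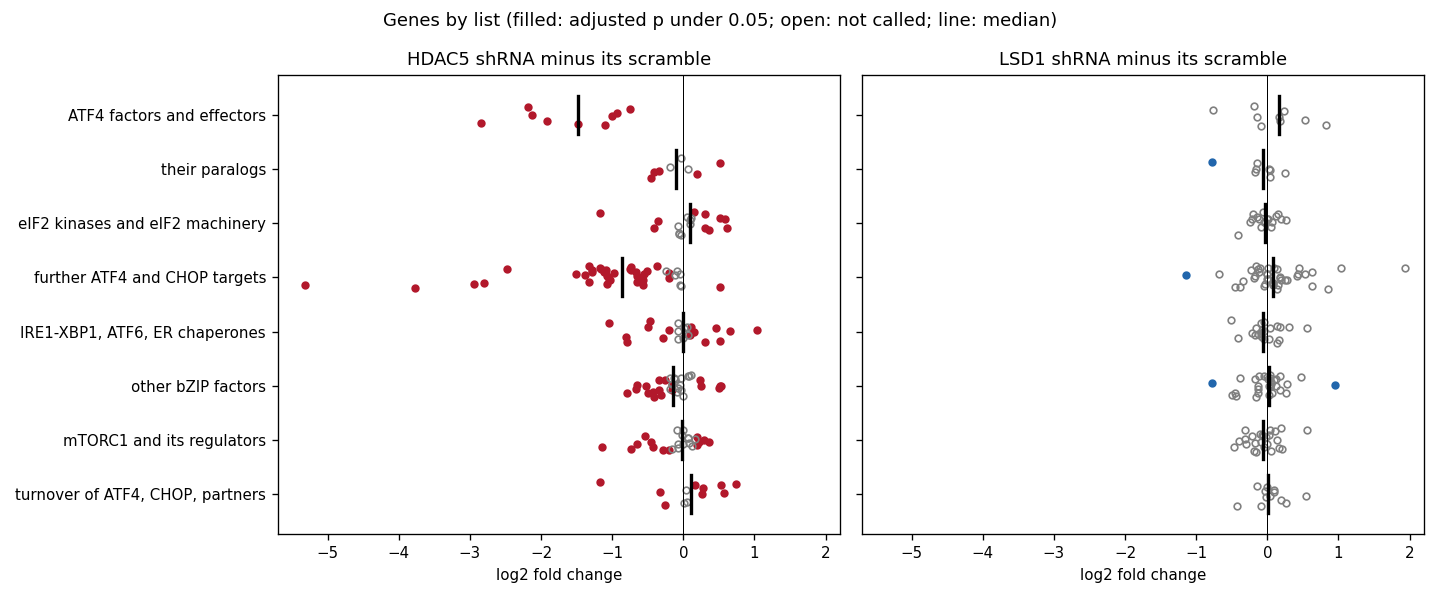
Log2 fold change (x axes) of each measured gene of 8 lists (rows) with HDAC5 shRNA and with LSD1 shRNA; filled points passed an adjusted p under 0.05, open points did not, and the bar is the list's median. The ATF4 genes (median -1.49 over 9 genes) and the further targets (-0.86) lie to the left with HDAC5 shRNA, while the medians of the other 6 lists lie between -0.14 and 0.11.

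Of 8 measured paralogs 3 fell and 2 rose with HDAC5 shRNA (median -0.11). The pseudokinase genes TRIB1 (-0.45, SE 0.06) and TRIB2 (-0.41, SE 0.04) and the C/EBP gene CEBPD (-0.34, SE 0.07) fell, although further probe sets of TRIB2 (-0.14) and CEBPD (-0.14) were not called. ATF5, the nearest relative of ATF4 and a target of it, rose (0.51, SE 0.08, limma adjusted p = 0.000931). It had 7.84, 7.83 and 7.89 on HDAC5 shRNA arrays, against 7.53, 7.26 and 7.22 on scramble arrays, and of its further probe sets 1 rose (0.44) and 1 was not called (0.15). SESN1, a relative of SESN2, rose by 0.19 (SE 0.06, adjusted p = 0.0323), and CEBPA (-0.19), CEBPE (-0.03) and CEBPZ (0.07) were not called. With LSD1 shRNA CEBPA fell (-0.78, SE 0.14, adjusted p = 0.0317), and none of the other 7 was called (limma; none of them had an unadjusted p under 0.05).

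The sensors and machinery upstream of ATF4 moved both ways with HDAC5 shRNA, 7 up and 3 down of 18 (median 0.10). The eIF2 subunit EIF2S1 (0.62, SE 0.04), the exchange factor subunit EIF2B3 (0.59, SE 0.05) and the phosphatase PPP1CA (0.52, SE 0.05) rose, and IMPACT, an inhibitor of the kinase GCN2, fell (-1.17, SE 0.09). The further probe sets of EIF2S1 did not follow it (-0.19, called lower, and -0.12). Among eIF2 kinase genes, named here after their values were seen, EIF2AK3 (PERK) rose (0.36, SE 0.06), while EIF2AK1 (HRI, -0.057) and EIF2AK2 (PKR, -0.078) were not called. EIF2AK4, the gene of GCN2, was not among the 18 measured genes. With LSD1 shRNA none of the 18 was called (limma; 5 had an unadjusted p under 0.05), and the largest changes were those of PPP1CB (-0.41, adjusted p = 0.0617) and IMPACT (0.26).

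The other branches of the unfolded protein response, with the chaperones of the endoplasmic reticulum, had 8 genes up and 7 down of 22 with HDAC5 shRNA (median 0.00092). The largest changes were in SEL1L, of protein degradation (-1.05, SE 0.04), SDF2L1, a chaperone cofactor (1.04, SE 0.08), the co-chaperone DNAJB9 (-0.81, SE 0.05) and the factor XBP1 (-0.79, SE 0.05). With LSD1 shRNA none of the 22 was called (limma; 6 had an unadjusted p under 0.05), with DNAJB9 at 0.56 and the chaperone HSP90B1 at -0.51, whose further probe set had the opposite sign (0.19). Of 32 other bZIP factors, 5 rose and 13 fell with HDAC5 shRNA (median -0.14), led by XBP1, the repressor BACH1 (-0.67, SE 0.07), JUNB (-0.65, SE 0.11) and FOSL2 (0.54, SE 0.08). With LSD1 shRNA CREM, a cyclic AMP-responsive factor, rose (0.95, SE 0.17, adjusted p = 0.0352) beside the decrease of CEBPA. Of the further CREM probe sets 1 rose (1.06), and those at 0.94 and -0.0011 were not called.

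Genes around mTORC1, the kinase complex that DDIT4 and the sestrins restrain, counted 5 up and 8 down of 25 with HDAC5 shRNA (median -0.02). DEPTOR, another mTORC1 inhibitor (-1.14, SE 0.07), EIF4EBP1, a translation repressor and ATF4 target (-0.73, SE 0.05), WDR59 (-0.64, SE 0.06) and NPRL3 (-0.53, SE 0.06), both of the amino acid sensing GATOR complexes, fell. Further probe sets of WDR59 were not called, and 1 of NPRL3 was called higher (0.29). Of 12 genes for the turnover and partners of ATF4 and CHOP, 6 rose and 3 fell (median 0.11), among them the prolyl hydroxylases EGLN3 (0.74, SE 0.09) and EGLN1 (0.58, SE 0.07), the proteasome subunit PSMD1 (0.54, SE 0.06) and the growth arrest gene GADD45A (-1.17, SE 0.04). With LSD1 shRNA none of the 25 mTORC1 genes was called (limma; 8 had an unadjusted p under 0.05), with DEPTOR at 0.56 and the kinase RPS6KB1 at -0.46. None of the 12 turnover genes was called either (limma; 4 at an unadjusted p under 0.05), with EGLN3 at 0.54 and the acetyltransferase EP300 at -0.43.

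The 5 other genes whose pattern was most like the mean of the 9 genes were TSC22D3 (GILZ), RBCK1, WARS1, RNF187 and TARS1. Their Pearson correlation with that mean was 0.993 to 0.997 over 12 arrays, each experiment centred on its scramble mean, and most of it comes from the gap between HDAC5 shRNA and its scramble, which these arrays share. TSC22D3, a leucine zipper protein, changed by -1.89 (SE 0.06) with HDAC5 shRNA and by 0.20 (SE 0.16) with LSD1 shRNA, and its further probe set by -0.57 with HDAC5 shRNA. RBCK1, a ubiquitin ligase subunit, changed by -1.64 (SE 0.04) and 0.20 (SE 0.14), and the tryptophanyl-tRNA synthetase gene WARS1 by -1.32 (SE 0.05) and 0.14 (SE 0.15). RNF187, another ubiquitin ligase, changed by -1.11 (SE 0.05) and 0.045 (SE 0.14), and the threonyl-tRNA synthetase gene TARS1 by -0.498 (SE 0.03) and 0.036 (SE 0.08). Among the 9 genes the correlation with that mean was highest for TRIB3 (0.995) and lowest for PPP1R15A (0.366). Each of the 9 is itself part of the mean, which raises its value, while the 5 other genes are not.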

How the data were processed

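RNA of 12 MDA-MB-231 samples was measured on Affymetrix arrays, 1 array each. The deposited values are log2 values per probe set, made by the authors with RMA in the affy package, per the submitters' processing notes; RMA removes a change shared by most transcripts and compresses small ratios at low signal. No source used here gives a version or says if the 12 arrays were normalised as 1 set. All 12 value columns were matched to samples. Of 22277 probe sets, 62 controls were left out. Of the rest, 19064 had 1 gene symbol, 1043 several and 2108 none; gene IDs matched RefSeq (GRCh38.p14) for 19052, whose current symbols were used.

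Each shRNA was compared with its own scramble arrays with limma 3.58.1 under R 4.3.3, on those 6 arrays (lmFit, eBayes with trend, Benjamini-Hochberg over 22215 probe sets, threshold 0.05); the difference of the changes used all 12 arrays. The script was tested on simulated data. SDs are over 3 arrays and SEs are limma's. The number of arrays limits the precision. Probe sets ending in _s_at or _x_at (ATF3, DDIT4) can match related transcripts. The genes, lists and naming rule (each list's 4 largest called changes, or 2 largest where none was called; all measured paralogs; the 5 genes most alike) were chosen with earlier results of these data known. Alternatives were the trend, normalization, array weights, a joint fit, a filter, gene-level adjustment, a block and leaving out arrays.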

Additional observations from a re-analysis of the deposited data

Results flagged for a closer look

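For 7 of the 9 genes the change with HDAC5 shRNA differed from the change with LSD1 shRNA by a test of the difference itself (limma, 12 arrays). In that test 12.7% of all probe sets were called lower. The 2 shRNAs were used in separate experiments, so shRNA and experiment cannot be told apart. In log2 units the HDAC5 change minus the LSD1 change was -1.02 for ATF4, -2.74 for ATF3, -1.67 for DDIT3, -2.29 for TRIB3, -3.37 for CHAC1, -1.24 for CEBPB and -0.73 for CEBPG. All 3 HDAC5 shRNA arrays were lower than their scramble arrays for each of these genes, as they were for 23.5% of all probe sets.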

How the results depend on the processing

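With HDAC5 shRNA all probe sets of the 9 genes stayed lower under each alternative tried, and 1 of 129 values lost its call (202014_at, in 1 fit of 12 arrays). The count of all called probe sets, 8489, was 5539 in 1 fit of 12 arrays and 5319 over genes, where fewer features were tested. The HDAC5 and scramble arrays share replicate numbers, but deviations of same-numbered arrays correlated at -0.05, -0.21 and -0.14, and the main fit used no pairing. With 3 arrays per group these correlations cannot show whether same-numbered arrays were handled together. With the replicate block, 7621 probe sets were called and all 10 probe sets of the 9 genes. In the LSD1 experiment the scramble arrays carry letters and the shRNA arrays numbers, and no label pairs them. Taken in label order, deviations of A and 1, B and 2, and C and 3 correlated at 0.33, 0.57 and 0.060, and array 3 correlated best with A (0.35), so no pairing was assumed. With a replicate block in that order, added after seeing the data, 1573 probe sets were called and 2 of the 10, ATF3 (0.82, limma adjusted p = 0.0204) and CHAC1 (0.52, adjusted p = 0.0432), both higher with LSD1 shRNA. No other alternative called any of the 10 with LSD1 shRNA, while the count over all probe sets, 847, was 2692 with array weights, 3485 in 1 fit of 12 arrays, 112 to 1062 without 1 array in turn, and 91 without scramble B and LSD1 shRNA 2 together, chosen after seeing the data. Small LSD1 changes turned sign: TRIB3 was -0.055 with array weights, and without 1 array ATF4 was -0.32 to 0.094, DDIT4 -0.99 to 0.44, CEBPB -0.027 to 0.40 and TRIB3 -0.053 to 0.30. For PPP1R15A the difference of the changes was -0.071 (202014_at) and -0.034 (37028_at) with array weights, and without 1 array -0.26 to 0.30 and -0.25 to 0.32. The causes of these shifts were not tested. For DDIT4 that difference also passed with array weights (-1.44, limma adjusted p = 0.0314). Quantile normalization over 12 arrays changed no call among the 10.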

Other observations

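Within the LSD1 experiment the values of the 9 genes differed from array to array. On LSD1 shRNA array 2, relative to the scramble mean, DDIT4 was at 1.53, CHAC1 at 1.09, CEBPB at 0.77, TRIB3 at 0.61, ATF4 at 0.38, DDIT3 at 0.35 and ATF3 at 0.32, while CEBPG was at -0.035 and PPP1R15A at -1.11. DDIT4, CHAC1, CEBPB and TRIB3 were all above the scramble mean on scramble array B as well, and all below it on scramble array A. On array 3 ATF3 was at 1.98 and DDIT4 at -1.18. Among the scramble arrays, DDIT4 was at 1.18 on B, where ATF3 was at -0.57, and ATF3 was at 0.94 on C, where DDIT4 was at -0.27. The mean over the 9 genes was -0.24, 0.44 and 0.05 on LSD1 shRNA arrays 1, 2 and 3, against -0.11, 0.06 and 0.05 on its scramble arrays (A, B, C). In the HDAC5 experiment the same mean was -1.61, -1.63 and -1.53 on HDAC5 shRNA arrays 1, 2 and 3, against -0.03, 0.10 and -0.06 on scramble arrays 1, 2 and 3.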
